A study of Homo sapiens with 6 samples.

Results

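The SOX transcription factors described here are 9 genes chosen by symbol as SOX family members of the neural crest lineage: SOX2, SOX4, SOX5, SOX6, SOX8, SOX9, SOX10, SOX11 and SOX12. The deposited count table lists 8 of them among 28862 genes. SOX10 is not analysed here. The cells were SH-SY5Y, a human neuroblastoma line with sympathetic, adrenergic character, sequenced as 6 RNA libraries in 2 groups. The first group is 3 libraries labelled SMN1 overexpression, called SMN1-labelled below, and the second is 3 libraries from cells given a control plasmid. Both groups come from a single line, and the labels give neither the time after plasmid delivery nor whether each library had a culture of its own. The p-values below therefore cover no more than the spread among these 6 libraries, some or all of which may be technical.

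SOX proteins bind DNA through an HMG box, a fold that sits in the minor groove and bends the helix, and they act with partner factors that differ between tissues. The family is divided into groups by the sequence of that box: SOX2 belongs to SoxB, SOX4, SOX11 and SOX12 to SoxC, SOX5 and SOX6 to SoxD, and SOX8, SOX9 and SOX10 to SoxE. In the neural crest, the embryonic cell population that gives rise to sympathetic neurons, SoxE factors mark the migrating and glial cells, SOX2 is tied to progenitor and glial states, and SoxC factors accompany neuronal differentiation. In mice SOX4 and SOX11 are required for the growth of sympathetic ganglia.

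Fewer reads, after scaling to library size, were assigned to SMN1 in the SMN1-labelled group than in the control group. SMN1, which encodes the survival motor neuron protein, stood at 16 ± 1.08 CPM (read counts scaled to library size with TMM factors) in SMN1-labelled libraries and 20.02 ± 0.432 CPM in control libraries (SD, n = 3 each), a log2 fold change of -0.32 (SE 0.06, edgeR adjusted p = 9.40e-05). Its near-identical copy SMN2 stood at 7.63 ± 0.427 CPM in SMN1-labelled libraries and 9.40 ± 0.358 CPM in control libraries. Reads could be split between these copies, and no source used here states how reads matching both were counted. The level of all SMN1 RNA, including any from the plasmid, was not tested. Directions below are therefore between libraries as labelled. Library totals ran from 30379242 to 40275498 reads, and 15829 genes had enough reads to test. A gene was called at an adjusted p of at most 0.05. By that rule 56.2% of all tested genes were called, 28.0% higher and 28.2% lower in SMN1-labelled libraries, with a median fold of 1.295 among called genes, and 60.7% of genes had every SMN1-labelled library on one side of every control library.

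The reads that can tell one SOX gene from another depend on how far their sequences differ, and the most conserved part is the box. The lines below give, in GRCh38 with GENCODE 29 transcripts and on the plus strand, 237 coding bases that cover the core of the HMG box in SOX4, the most abundant member, and in SOX9, the member that fell. The SOX4 stretch is chr6:21594685-21594921, and the SOX9 stretch lies in 2 coding segments between chr17:72121680 and 72122812. The capitals mark bases of SOX9 that differ from SOX4.
SOX4: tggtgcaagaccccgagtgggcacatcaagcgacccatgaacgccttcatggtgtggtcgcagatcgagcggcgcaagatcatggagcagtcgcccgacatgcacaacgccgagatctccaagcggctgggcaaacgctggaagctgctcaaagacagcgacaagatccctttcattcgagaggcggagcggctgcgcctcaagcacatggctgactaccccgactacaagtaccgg
SOX9: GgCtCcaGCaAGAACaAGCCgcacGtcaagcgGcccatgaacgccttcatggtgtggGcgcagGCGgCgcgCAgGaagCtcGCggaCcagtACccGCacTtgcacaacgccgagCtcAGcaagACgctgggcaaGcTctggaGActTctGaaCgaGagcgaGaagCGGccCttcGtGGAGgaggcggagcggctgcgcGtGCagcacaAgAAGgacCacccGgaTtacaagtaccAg
SOX9 shared 170 of the 237 bases with SOX4 (71.7%). SOX9 was closer to its own group, with 216 bases shared with SOX10 (91.1%) and 211 with SOX8 (89%). SOX5 and SOX6 shared 191 bases (80.6%). Despite this, no stretch of 150 bases, the read length, from the longest coding transcript of any of the 9 genes occurred in the same orientation in an annotated transcript of another gene. The other transcripts of each SOX gene were not searched. Matches to the opposite strand were not searched either, and genes annotated on that strand overlap exons of SOX4 and SOX6.

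SOX4, SOX11 and SOX12, the SoxC genes, were the abundant members, and in the SMN1-labelled libraries SOX11 and SOX12 rose slightly while SOX4 was not called. Of the 7 members with enough reads to test, 2 were called higher and 1 lower, and 4 were not called. This is 3 of 7 called, against 56.2% of all tested genes. The groups did not overlap for the 3 called members, SOX11, SOX12 and SOX9, against 60.7% of all tested genes. The median log2 fold change of the 7 was 0.12, against 0.00087 over all tested genes.

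**Figure D1:**
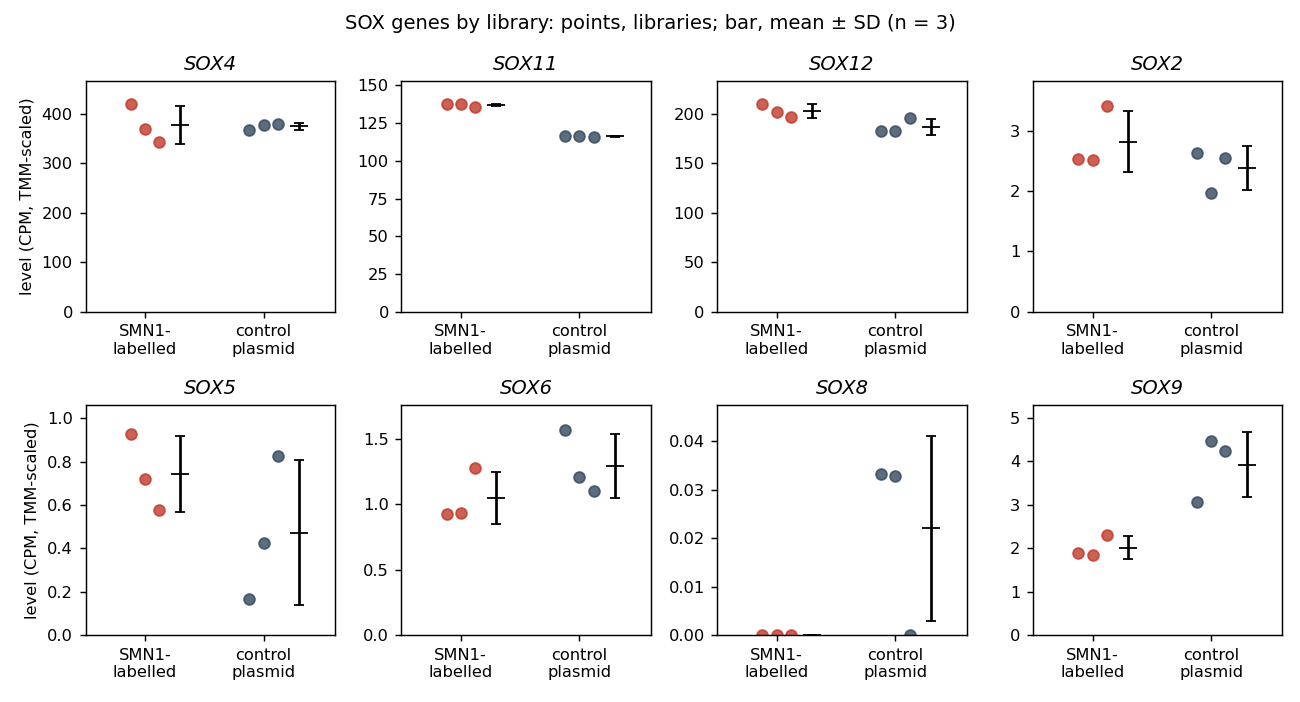
Level of each listed SOX gene in CPM (vertical axis, from 0, own scale in each panel) in the SMN1-labelled libraries (left, red) and the control libraries (right, dark blue), with the mean and SD of 3 libraries in black. The groups stand apart for SOX11, SOX12 and SOX9 and overlap for the other members. SOX8 had at most 1 read in any library.

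SOX11 lies at chr2:5692667-5701385 (plus strand, GRCh38, GENCODE 29) and is read from 1 exon. Its protein is a SoxC activator of neuronal genes, and the gene is expressed in the sympathetic lineage and in neuroblastoma. SOX11 had 4608, 5718 and 4471 reads in SMN1-labelled libraries 1, 2 and 3, against 3503, 3551 and 3356 in control libraries 1, 2 and 3. After scaling this was 137.6, 137.5 and 136 CPM in SMN1-labelled libraries, against 116.6, 116.3 and 115.7 CPM in control libraries. The libraries of each group lay within 2 CPM of each other, and every SMN1-labelled library was above every control library. SOX11 was 1.179-fold higher (95% interval 1.123 to 1.238, log2 fold change 0.24, SE 0.03, edgeR adjusted p = 2.19e-06). A non-coding gene annotated on the same strand overlaps its exon, but it held only 28 to 38 reads in any library.

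SOX12, at chr20:325595-330224 on the plus strand, also has 1 exon and encodes the SoxC protein with the weakest activation domain in mouse studies. It had 7048, 8384 and 6464 reads in SMN1-labelled libraries, against 5483, 5568 and 5681 in control libraries. This came to 210.5, 201.5 and 196.6 CPM in SMN1-labelled libraries, against 182.5, 182.4 and 195.8 CPM in control libraries. The groups did not overlap, but the lowest SMN1-labelled library stood only just above the third control library. SOX12 was 1.085-fold higher (95% interval 1.029 to 1.145, log2 fold change 0.12, SE 0.04, edgeR adjusted p = 0.00972). The call was lost without the first control library (log2 fold change 0.10, adjusted p = 0.0651) or without the second (0.10, adjusted p = 0.0548). SOX12 has a GC content of 62% in its longest transcript, and GC content went with lower values in SMN1-labelled libraries: across 15663 genes, which are not independent replicates, log2 fold change and GC content had a Spearman rho of -0.43. With gene length and GC content corrected within each library, the log2 fold change of SOX12 was 0.30 (adjusted p = 2.43e-07) and that of SOX11 was 0.13 (adjusted p = 0.0017), so the order of the pair by size changed.

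SOX4, at chr6:21592768-21598619 on the plus strand, likewise has 1 exon and encodes the SoxC factor most widely expressed in embryonic and tumour tissue. It had 14038, 15364 and 11274 reads in SMN1-labelled libraries, against 10996, 11524 and 11012 in control libraries. The scaled levels were 419.2, 369.3 and 342.9 CPM in SMN1-labelled libraries, against 366.1, 377.5 and 379.6 CPM in control libraries. The SMN1-labelled libraries enclosed the control libraries, with the first above all controls, the third below all controls and the second between them. The mean was 377.2 ± 38.7 CPM in SMN1-labelled libraries and 374.4 ± 7.26 CPM in control libraries (SD, n = 3 each). The log2 fold change was 0.011 (SE 0.05, edgeR adjusted p = 0.869) with a 95% interval in fold of 0.941 to 1.079, so the estimate leaves room for a change of that size either way. Leaving out the first SMN1-labelled library gave a log2 fold change of -0.070, and leaving out the third gave 0.076, neither past the threshold.

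Ratios within a library do not depend on how libraries are scaled against each other. The ratio of SOX11 reads to SOX4 reads was 0.328, 0.372 and 0.397 in SMN1-labelled libraries, against 0.319, 0.308 and 0.305 in control libraries. All SMN1-labelled ratios were higher, on average 1.174-fold, with an exact two-sided permutation p of 0.1, the smallest that 3 libraries against 3 allow. The ratio of SOX12 reads to SOX4 reads was 0.502, 0.546 and 0.573 in SMN1-labelled libraries, against 0.499, 0.483 and 0.516 in control libraries. Here the groups overlapped (exact permutation p = 0.2, two-sided). The ratios were not corrected for gene length or GC content. Across 15663 genes, not independent replicates, log2 fold change had a Spearman rho of 0.34 with length and -0.43 with GC content. After the length and GC correction the log2 fold change was 0.13 for SOX11, 0.30 for SOX12 and -0.0020 for SOX4.

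**Figure D2:**
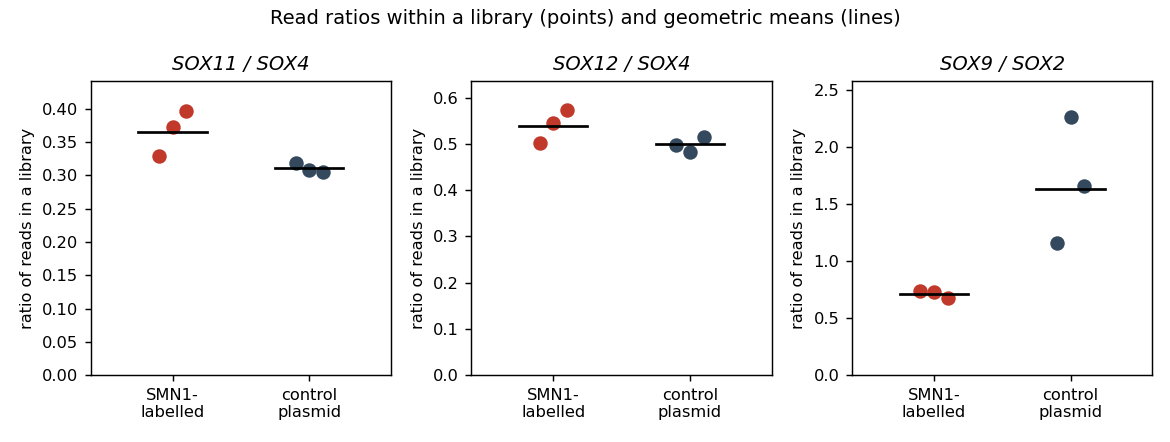
Ratio of reads between a pair of SOX genes in each library (points, vertical axis from 0) with the geometric mean of each group (line), SMN1-labelled on the left and control plasmid on the right. The SOX11 to SOX4 ratio is 0.328 or more in SMN1-labelled libraries and at most 0.319 in control libraries, while the SOX9 to SOX2 ratio is below 0.75 in all SMN1-labelled libraries and above 1.16 in all control libraries. The SOX9 and SOX2 pair was chosen after its values were seen, so its separation is no independent result.

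SOX9, a SoxE factor, was the member that fell. SOX9 drives cartilage formation and, in the neural crest, acts early in the specification of crest cells and glia. It lies at chr17:72121020-72126420 on the plus strand and its longest coding transcript has 3 exons. SOX9 had 63, 77 and 76 reads in SMN1-labelled libraries, against 92, 136 and 123 in control libraries. This was 1.881, 1.851 and 2.312 CPM in SMN1-labelled libraries, against 3.063, 4.455 and 4.239 CPM in control libraries. Every SMN1-labelled library was below every control library, with the first control library lowest in its group. SOX9 was 1.954-fold lower in SMN1-labelled libraries (log2 fold change -0.97, 95% interval -1.28 to -0.65, SE 0.15, edgeR adjusted p = 1.05e-05). Among the 8892 called genes 94.2% had a smaller absolute log2 fold change. The call held in all 19 alternative analyses run, with log2 fold changes from -1.12 to -0.35, the smallest on log2(FPKM + 1), a scale that understates changes of low genes.

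SOX8, a second SoxE gene, which acts alongside SOX9 and SOX10 in crest and glia, had 0 reads in all SMN1-labelled libraries, against 1, 1 and 0 reads in control libraries. With 0 reads up to 3 are allowed, or 0.0721 to 0.0913 CPM in a SMN1-labelled library, so a difference in SOX8 was not detectable at this depth.

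SOX2, the SoxB member, keeps neural progenitors undifferentiated and is read from 1 exon at chr3:181711924-181714436 on the plus strand. It had 85, 105 and 112 reads in SMN1-labelled libraries, against 79, 60 and 74 in control libraries, which came to 2.538, 2.524 and 3.407 CPM in SMN1-labelled libraries and 2.63, 1.965 and 2.551 CPM in control libraries. The groups overlapped, with the third SMN1-labelled library highest and the second control library lowest. The log2 fold change was 0.24 (95% interval -0.089 to 0.56, SE 0.16, edgeR adjusted p = 0.21), as large an estimate as that of SOX11 but with about 3 CPM behind it. The gene lies within the long non-coding SOX2-OT on the same strand without sharing an exon, and SOX2-OT had at most 3 reads in any library. SOX2 passed the threshold in 1 of 19 alternatives, the length and GC correction (log2 fold change 0.39, edgeR adjusted p = 0.0446).

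The SoxD genes SOX5 and SOX6, which encode long proteins with no activation domain of their own that modulate other SOX factors, were scarce. SOX5, on the minus strand at chr12:23529500-24562544, had 31, 30 and 19 reads in SMN1-labelled libraries, against 5, 13 and 24 in control libraries. Its level was 0.926, 0.721 and 0.578 CPM in SMN1-labelled libraries, against 0.167, 0.426 and 0.827 CPM in control libraries. The control libraries spread widely and the third of them lay above 2 of the SMN1-labelled libraries. The log2 fold change was 0.65 (95% interval -0.087 to 1.40, SE 0.36, edgeR adjusted p = 0.125), and it depended on single control libraries. Without the third it was 1.31 (edgeR adjusted p = 0.00798), and without the first, which had 5 reads, it was 0.25 (edgeR adjusted p = 0.563). SOX6, on the minus strand at chr11:15966449-16739591, had 31, 39 and 42 reads in SMN1-labelled libraries, against 47, 37 and 32 in control libraries. This was 0.926, 0.938 and 1.278 CPM in SMN1-labelled libraries, against 1.565, 1.212 and 1.103 CPM in control libraries. The log2 fold change of SOX6 was -0.32 (95% interval -0.77 to 0.14, SE 0.22, edgeR adjusted p = 0.229), and the groups overlapped. After the length and GC correction SOX6 was at -0.53 (adjusted p = 0.047). Its exons overlap those of C11orf58 on the opposite strand, which had 8842 to 14484 reads per library, and no source used here states the strand setting of the counting, so part of the few SOX6 reads could belong there.

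**Figure D3:**
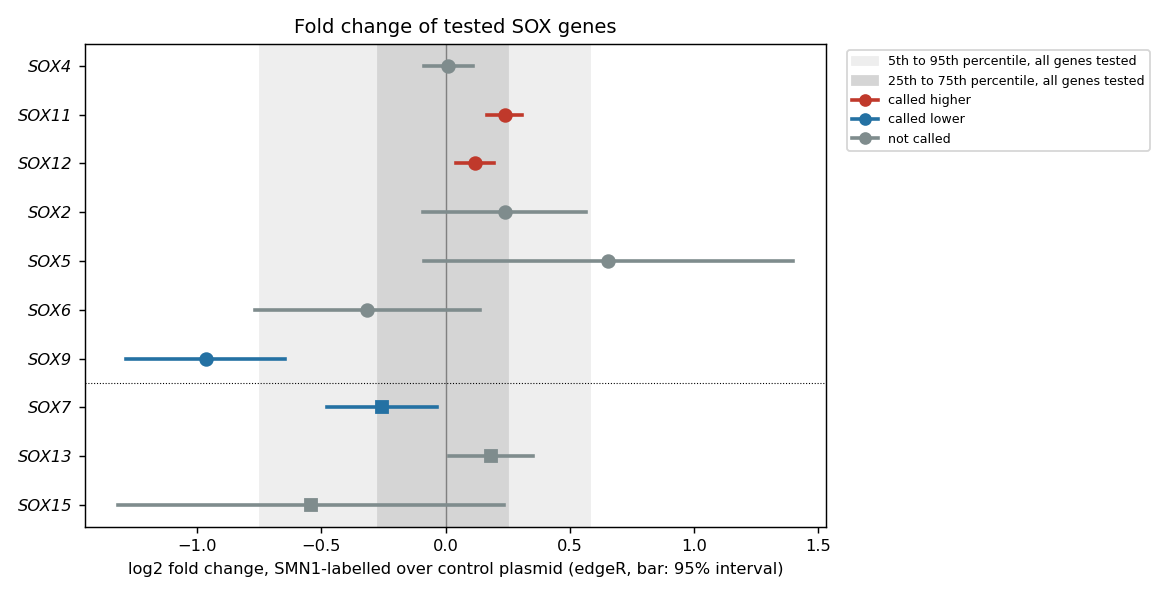
Log2 fold change of each tested SOX gene, SMN1-labelled over control plasmid (horizontal axis), with the 95% interval from edgeR as a bar. Members are circles above the dotted line, other SOX genes squares below it, and shaded bands span the percentiles of all tested genes (25th to 75th, -0.27 to 0.25, and 5th to 95th, -0.75 to 0.58). SOX9 lies below the wider band and SOX5, not called and with a wide interval, above it, while SOX11, SOX12, SOX4 and SOX2 lie inside the narrower one.

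Levels between genes were compared on the deposited FPKM values, which are scaled by gene length. Between groups, FPKM values ran higher in SMN1-labelled libraries. The median log2 fold change over all genes was 0.087 on log2(FPKM + 0.1), against 0.00087 on the counts. On log2(FPKM + 0.1) the log2 fold change was 0.094 for SOX4 and 0.21 for SOX12, against 0.011 and 0.12 on the counts. SOX4 was at 75.2 ± 7.31 FPKM in SMN1-labelled libraries and 70.3 ± 1.08 FPKM in control libraries (SD, n = 3 each). SOX12 was at 42.2 ± 1.23 FPKM in SMN1-labelled libraries and 36.5 ± 1.07 FPKM in control libraries. SOX11 followed at 14.8 ± 0.0473 FPKM in SMN1-labelled libraries and 11.8 ± 0.188 FPKM in control libraries. These levels kept the order SOX4, SOX12, SOX11 in all 6 libraries, without overlap between neighbours. Together the SoxC genes supplied 95.6% to 96.7% of the summed FPKM of the 13 listed SOX genes in SMN1-labelled libraries and 95.6% to 95.9% in control libraries.

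SOX9 made up 0.314% to 0.437% of that sum in SMN1-labelled libraries and 0.59% to 0.835% in control libraries, and SOX11 made up 10.1% to 11.3% in SMN1-labelled libraries and 9.26% to 9.77% in control libraries.

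SOX2 was at 1.09 ± 0.196 FPKM and SOX9 at 0.497 ± 0.0635 FPKM in SMN1-labelled libraries, without overlap. In control libraries SOX2 was at 0.867 ± 0.129 FPKM and SOX9 at 0.91 ± 0.168 FPKM, and their ranges overlapped. The ratio of SOX9 reads to SOX2 reads, a pair chosen after its values were seen, was 0.741, 0.733 and 0.679 in SMN1-labelled libraries, against 1.165, 2.267 and 1.662 in control libraries (exact two-sided permutation p = 0.1, the smallest possible). SOX6 and SOX5 were the scarcest tested members, at 0.05 ± 0.01 and 0.0633 ± 0.0153 FPKM in SMN1-labelled libraries and 0.06 ± 0.01 and 0.04 ± 0.03 FPKM in control libraries, and their ranges overlapped in both groups. SOX8 was below them, listed at 0 FPKM in all SMN1-labelled libraries.

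**Figure D4:**
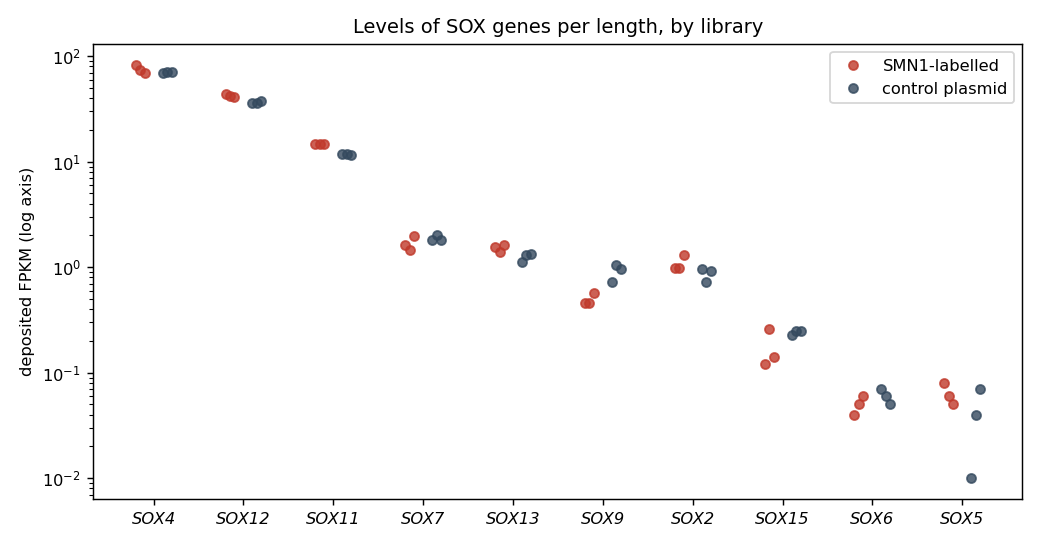
Deposited FPKM (log axis) of the SOX genes above 0 in all libraries, members and others, ordered by their control mean, with SMN1-labelled libraries in red on the left of each pair and control libraries in dark blue on the right. SOX4, SOX12 and SOX11 stand at 11.58 FPKM or more, all other SOX genes at 2.03 or less.

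Of 10 further SOX genes 5 were listed and 3 tested, and 1 of these was called, against 56.2% of all tested genes. Those without a call are named after their values were seen. SOX7, a SoxF gene of the endothelial lineage, was at 5.59 ± 0.842 CPM in SMN1-labelled libraries and 6.63 ± 0.389 CPM in control libraries (log2 fold change -0.26, SE 0.11, edgeR adjusted p = 0.0453). The groups overlapped for SOX7, and the call was lost in 13 of 19 alternatives, among them DESeq2 (adjusted p = 0.175) and the length and GC correction (adjusted p = 0.419). SOX13, the remaining SoxD gene, was at 11.6 ± 0.816 CPM in SMN1-labelled libraries and 10.2 ± 1.01 CPM in control libraries (edgeR adjusted p = 0.0634, log2 fold change 0.18). Its groups overlapped, and it passed in 6 of 19 alternatives. SOX15, a SoxG gene, had 6 to 16 reads in SMN1-labelled libraries and 11 or 12 in control libraries, and was not called (log2 fold change -0.54, edgeR adjusted p = 0.231). SOX17 and SOX30 had at most 6 reads in any library.

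Of 12 other neural crest transcription factors 7 were tested, 5 fell and 0 rose, against 28.2% lower and 28.0% higher over all tested genes, and the median change of the tested genes on the log2 scale was -0.44 against 0.00087 over all tested genes. TWIST1, a bHLH factor of migrating crest, was at 565.5 ± 37.01 CPM in SMN1-labelled libraries and 703.9 ± 17.7 CPM in control libraries (log2 fold change -0.32, edgeR adjusted p = 3.23e-07). After the length and GC correction TWIST1 was at -0.025 (adjusted p = 0.61). The zinc finger repressor SNAI1 was at 2.53 ± 0.266 CPM in SMN1-labelled libraries and 5.002 ± 0.639 CPM in control libraries (log2 fold change -0.97, edgeR adjusted p = 8.38e-07). Its relative SNAI2 was at 2.00 ± 0.231 CPM in SMN1-labelled libraries and 4.09 ± 0.514 CPM in control libraries (log2 fold change -1.03, edgeR adjusted p = 1.22e-06). The tested factors without a call were TFAP2B and ZIC1. TFAP2B, a crest factor kept in sympathetic neuroblasts, was abundant, at 308.2 ± 8.65 CPM in SMN1-labelled libraries and 305.4 ± 1.33 CPM in control libraries (log2 fold change 0.013, edgeR adjusted p = 0.763). ZIC1 was at 8.61 ± 1.34 CPM in SMN1-labelled libraries and 9.11 ± 0.492 CPM in control libraries (log2 fold change -0.070, edgeR adjusted p = 0.557). Both were named after their values were seen. TFAP2A, PAX3, PAX7 and MSX1 had at most 8 reads in any library.

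Genes reported in mouse and chick as targets of SOX4 and SOX11 did not move one way. Of 6 tested, 2 rose and 1 fell, against 28.0% higher and 28.2% lower over all tested genes. The median change of the tested genes on the log2 scale was 0.0027, against 0.00087 over all tested genes. MAP2, a microtubule-associated protein of dendrites, was at 125 ± 5.81 CPM in SMN1-labelled libraries and 98.2 ± 2.48 CPM in control libraries (log2 fold change 0.35, edgeR adjusted p = 5.73e-08). The proneural factor NEUROD1 was at 3.89 ± 0.0679 CPM in SMN1-labelled libraries and 2.68 ± 0.229 CPM in control libraries (log2 fold change 0.54, edgeR adjusted p = 0.000787). TEAD2, a DNA-binding partner of YAP, was at 18.5 ± 0.333 CPM in SMN1-labelled libraries and 24.6 ± 1.59 CPM in control libraries (log2 fold change -0.41, edgeR adjusted p = 1.61e-06). After the length and GC correction MAP2 stood at 0.11 (edgeR adjusted p = 0.00929) and TEAD2 at -0.16 (edgeR adjusted p = 0.0197) on the log2 scale, and 3 genes of the list were lower. TUBB3, neuronal beta-tubulin and named after its value was seen, cannot be judged from its own row: it held 7.45 CPM in SMN1-labelled and 8.53 CPM in control libraries, while an annotated gene that overlaps its exons on the same strand held 12374 to 16619 reads per library.

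Cartilage genes that SOX9 activates in chondrocytes summed to 39.3 to 41.8 CPM in SMN1-labelled libraries and 48.1 to 50.8 CPM in control libraries. COL9A2 alone made up 22.2 CPM of this in SMN1-labelled and 29.96 CPM in control libraries on average, so the difference in the sum was mostly that gene. Of 12 in the list 6 were tested, 2 fell and 0 rose, against 28.2% lower and 28.0% higher over all tested genes. The median change of the tested genes on the log2 scale was -0.19, against 0.00087 over all tested genes. COL9A2, a chain of collagen IX, was at 22.2 ± 1.28 CPM in SMN1-labelled libraries and 29.96 ± 0.329 CPM in control libraries (log2 fold change -0.43, edgeR adjusted p = 1.69e-07), and its log2 fold change was -0.21 after the length and GC correction. COL11A2, a chain of collagen XI, was at 4.81 ± 0.604 CPM in SMN1-labelled libraries and 5.88 ± 1.01 CPM in control libraries (log2 fold change -0.30, edgeR adjusted p = 0.0425), a call lost in 10 of 19 alternatives, with overlapping groups. COL2A1 and ACAN, the best known SOX9 targets, MATN1 and COMP had at most 13 reads in any library.

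Neural progenitor genes, among which SOX2 acts, split. Of 11 in the list 7 were tested, 3 rose and 3 fell, against 28.0% higher and 28.2% lower over all tested genes. The median change of the tested genes on the log2 scale was -0.061, against 0.00087 over all tested genes. POU3F2, a POU factor that partners SOX2 in neural progenitors, was at 26.5 ± 0.701 CPM in SMN1-labelled libraries and 13.9 ± 0.0678 CPM in control libraries (log2 fold change 0.93, edgeR adjusted p = 1.91e-12). HES1, a repressor downstream of Notch, had 15, 35 and 26 reads in SMN1-labelled libraries, against 115, 144 and 129 in control libraries (log2 fold change -2.62, edgeR adjusted p = 3.00e-11). NES, the progenitor filament nestin, was at 1415 ± 17.8 CPM in SMN1-labelled libraries and 1854 ± 25.97 CPM in control libraries (log2 fold change -0.39, edgeR adjusted p = 2.72e-10). PAX6, PROM1, HES5 and GLI3 had at most 9 reads in any library.

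**Figure D5:**
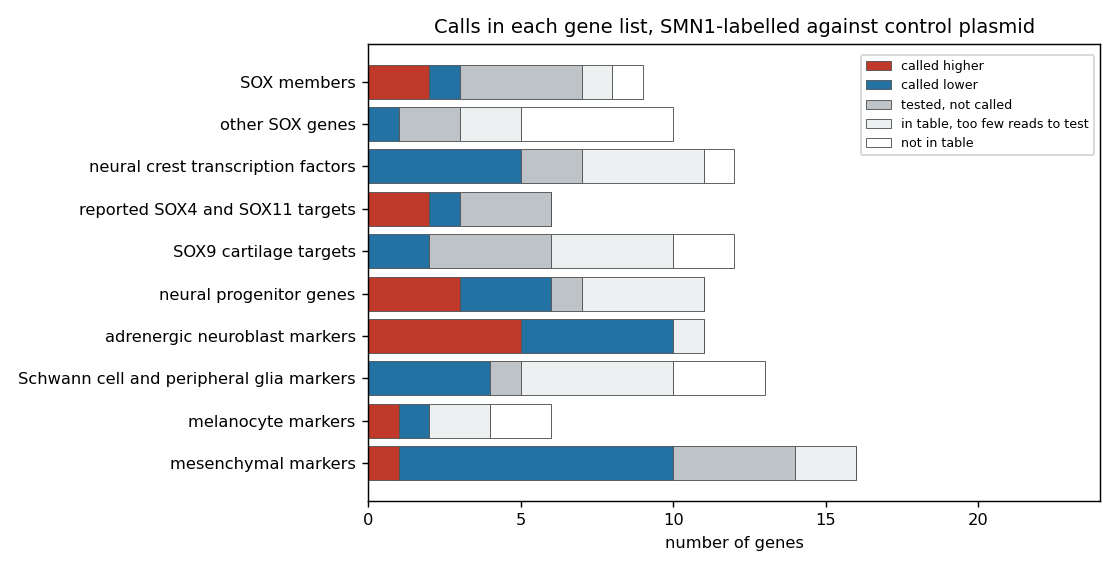
Number of genes in each list (horizontal axis) called higher or lower in SMN1-labelled against control libraries, tested without a call, too scarce to test, or not in the table. Among neural crest factors 5 of 7 tested genes were lower, and among mesenchymal markers 9 of 14, against 28.2% of all tested genes. TWIST1 and SNAI2 are in both lists.

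Markers of the cell types that a SOX gene could stand for were read in the same libraries. In bulk RNA, fewer cells of a type and less RNA per cell cannot be told apart. The adrenergic neuroblast list of the line itself was abundant, with summed levels of 33320 to 34604 CPM in SMN1-labelled libraries and 25923 to 27689 CPM in control libraries, though TH, the first enzyme of catecholamine synthesis, had at most 9 reads. Of its 10 tested genes 5 rose and 5 fell on the counts, against 28.0% higher and 28.2% lower over all tested genes. The fallen genes were not stable to the processing: 0 fell after the length and GC correction, where 6 rose, 1 or 2 fell on FPKM values, and 3 fell without the third SMN1-labelled library. The granin CHGB was at 13386 ± 97.2 CPM in SMN1-labelled libraries and 7761 ± 242.6 CPM in control libraries (log2 fold change 0.79, edgeR adjusted p = 2.99e-15). CHGA, another granin and named after its value was seen, was at 15440 ± 429.9 CPM in SMN1-labelled libraries and 13926 ± 641.2 CPM in control libraries. CHGA and CHGB made up most of the summed level of the list, and the difference in that sum was mostly CHGB. After the correction DBH, the enzyme that makes noradrenaline, had a log2 fold change of 0.61. On the counts DBH was at 1731 ± 28.9 CPM in SMN1-labelled libraries and 1329 ± 64.4 CPM in control libraries (log2 fold change 0.38, edgeR adjusted p = 3.23e-09). The lineage factor PHOX2A was at 150 ± 5.56 CPM in SMN1-labelled libraries and 196 ± 5.09 CPM in control libraries (log2 fold change -0.39, edgeR adjusted p = 3.67e-09), a call lost after the length and GC correction (log2 fold change -0.0093, adjusted p = 0.833).

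Schwann cell and glial markers, many of them SOX10-dependent, were scarce. Of 13 in the list 10 were listed and 5 tested, of which 4 fell and 0 rose, against 28.2% lower and 28.0% higher over all tested genes. On FPKM values 2 fell. Their summed level was 17.6 to 21.8 CPM in SMN1-labelled libraries and 23.9 to 25.4 CPM in control libraries, of which PMP22, named after its value was seen, made up 16.7 CPM in SMN1-labelled and 19.1 CPM in control libraries on average. S100B, a calcium-binding protein of glia, had 30, 41 and 33 reads in SMN1-labelled libraries, against 58, 71 and 73 in control libraries (log2 fold change -1.22, edgeR adjusted p = 4.91e-06). EGR2, the myelination factor, had 10, 7 and 7 reads in SMN1-labelled libraries, against 22, 19 and 17 in control libraries (log2 fold change -1.52, edgeR adjusted p = 0.000513). Among the members too scarce to test, EDNRB, an endothelin receptor of migrating crest, had 16 reads over the SMN1-labelled libraries and 6 over the control libraries, and POU3F1, a factor of promyelinating Schwann cells, had 8 reads over the SMN1-labelled libraries and 2 over the control libraries. The glial genes MIA, EDNRB, POU3F1 and GFAP had at most 8 reads in any library.

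Of 14 tested mesenchymal markers 9 fell and 1 rose, against 28.2% lower and 28.0% higher over all tested genes. Their median log2 fold change was -0.41, against 0.00087 over all tested genes. The list summed to 909 to 995 CPM in SMN1-labelled libraries and 1257 to 1289 CPM in control libraries, with TWIST1 and SNAI2 also in the crest list. TWIST1 alone made up 565.5 CPM of this in SMN1-labelled and 703.9 CPM in control libraries on average. Its call was lost after the length and GC correction. FOSL2 rose (log2 fold change 0.34, edgeR adjusted p = 0.00124), while PRRX1, WWTR1, YAP1 and NOTCH2 were not called. These 5 genes were named after their values were seen. COL3A1, a chain of collagen III, was at 25.6 ± 0.119 CPM in SMN1-labelled libraries and 65.9 ± 2.16 CPM in control libraries (log2 fold change -1.36, edgeR adjusted p = 2.13e-17). The intermediate filament VIM was at 92.6 ± 1.49 CPM in SMN1-labelled libraries and 188.8 ± 3.25 CPM in control libraries (log2 fold change -1.03, edgeR adjusted p = 8.96e-17). COL1A1, a chain of collagen I, was at 7.44 ± 1.28 CPM in SMN1-labelled libraries and 21.7 ± 1.33 CPM in control libraries (log2 fold change -1.56, edgeR adjusted p = 5.80e-13). RUNX1 and COL1A2 had at most 17 reads in any library.

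The melanocyte markers summed to 2.86 to 3.25 CPM in SMN1-labelled libraries and 2.48 to 3.396 CPM in control libraries. MITF, the master factor of melanocytes, rose (log2 fold change 0.79, edgeR adjusted p = 0.00179), and PMEL, a melanosome protein, fell (log2 fold change -0.77, edgeR adjusted p = 0.0017). DCT and TYRP1 had at most 3 reads in any library. The part of the glial, mesenchymal and melanocyte marker differences in the SOX9 result was not tested.

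The genes whose profile over the 6 libraries was nearest to that of SOX4, the most abundant member, were ZBTB7A, FDXR and TRIM8, with root mean square differences of 0.028, 0.029 and 0.03 in mean-centred log2 CPM among 10101 genes at 5 CPM or more. None of the 3 was called (log2 fold changes 0.0065, -0.018 and -0.027), which follows from choosing them by nearness to SOX4. The likeness rests on 6 libraries that share their depth and scaling.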

How the data were processed

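RNA from 6 libraries was measured with a stranded mRNA kit and paired 150-base reads, per the labels' protocols. HISAT2, DESeq2 and the build GRCh38 are named, without versions, per the submitters' processing notes, and no source used here states the counting tool, annotation release or strand setting. The authors deposited whole-number read counts for 28862 genes and FPKM values, rounded to 2 decimals, for 28501 genes.

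Counts were tested with edgeR 4.0.16 (R 4.3.3): TMM factors, filterByExpr, a quasi-likelihood fit with group as the only term, two-sided, with Benjamini-Hochberg adjustment over 15829 genes. Each standard error was obtained by dividing the absolute log2 fold change by the root of its F value. Totals of 30379242 to 40275498 reads set the precision. Intervals and floors cover counting error and the spread of these libraries only. No library repeats another: chi-square values per degree of freedom were 2.41 to 4.12 for pairs within a group and 54.3 to 61.8 for pairs across groups. Steps were tested on simulated counts.

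The members and lists were chosen with earlier results of these data known. All members are named, with up to 3 called genes of each list in order of p, and genes named outside that rule are marked as such. Of 97 list entries beside the members 84 were found. Lengths and GC content came from GENCODE 29. Alternatives were DESeq2 1.42.0, limma-voom (limma 3.58.1), other scaling factors, no filter or a stricter one (1 CPM in 3 libraries), a replicate block, leaving out each library, limma on logged FPKM values (pseudocount 0.1 or 1, genes reaching 0.5 FPKM, and with pseudocount 1 also all genes), a spline correction for length and GC content, removal of ribosomal protein and mitochondrial genes, and thinning to the smallest library. Ratios were tested by exact permutation. Some genes and sequences are not reported here.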

Additional observations from a re-analysis of the deposited data

How the results depend on the processing

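SOX9 and SOX11 kept their call and direction in all 19 alternatives run. The number of SOX members called higher, 2, ranged from 1 to 3 when single libraries were left out, and the number called lower, 1, stood at 2 after the length and GC correction, with SOX6 added. Over all genes 2883 were lower on log2(FPKM + 1) without a filter, against 4466 on the counts, and 62.5% of calls were higher on filtered FPKM values, against 49.8% on the counts. SOX4, never called, changed sign with upper-quartile factors (log2 fold change -0.00522), with the stricter filter (-0.000862) and after the length and GC correction (-0.00204), and ranged from -0.070 to 0.076 over left-out libraries; the cause was not tested. With the replicate number as a block 4326 genes were higher and 4382 lower, and of the SOX genes SOX7 alone lost its call (adjusted p = 0.055). Libraries with the same number did not deviate together (r = 0.003 to 0.0133), and not every library correlated best with its own number. Of 629 values of 34 named genes under the alternatives 586 kept direction and side of the threshold, 29 lost a call, 9 gained one and 5 changed sign. SOX2, SOX5, SOX6 and SOX8 rest on 112 reads or fewer per library, and SOX9 on 136 or fewer.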
